A study of Mus musculus and Macaca nemestrina with 20 samples.

Results

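Neutrophils are short-lived white cells that mature in the bone marrow, and their genes are switched on in sequence. Promyelocytes fill primary granules with serine proteases and myeloperoxidase, the next stages fill secondary and tertiary granules with iron-binding, antimicrobial and matrix-cleaving proteins, and mature cells carry surface receptors and the cytosolic calprotectin proteins. A sensory ganglion normally holds few of these cells, most of them in its vessels. The genes described here are 33 neutrophil genes, chosen by symbol, of the 29766 genes in the mouse tables, and the 25 of them found under the same symbol in capitals among 35194 genes in the monkey tables. They were split into 6 primary granule and promyelocyte genes, 11 secondary and tertiary granule genes and 16 mature neutrophil genes.

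The tissue was the dorsal root ganglion (DRG), where sensory neurons have their cell bodies, read by bulk RNA sequencing. In mice, 7 libraries of genotype ADAM17 KO (knockout) were compared with 7 of genotype ADAM17 flox, in a batch 1 of 4 knockout and 3 flox libraries and a batch 2 of 3 knockout and 4 flox libraries. The labels give neither the Cre driver, the cells in which the floxed gene was deleted, nor the age of the mice. In pig-tailed monkeys (Macaca nemestrina), 3 DRG libraries of the SADBE group (squaric acid dibutyl ester, which sensitises skin on contact) were compared with 3 of the vehicle group. Totals, in M counts, were 12.1 to 30.8 for mouse knockout and 30.9 to 52.1 for flox libraries, and in batch 1 the highest knockout total was 14.7 while the lowest flox total was 46.9. They were 9.02 to 22.4 M with SADBE and 13.7 to 27.1 M with vehicle in monkeys. Adam17 itself lay at 16.1 to 34.6 CPM (counts relative to the library total, scaled by the trimmed mean of M-values) in knockout and 17.6 to 33.3 CPM in flox libraries, which overlapped. The sum of Y-linked transcripts was 155.3 and 181.1 CPM in knockout libraries 6 and 7 and 4.30 to 12.02 CPM in the other mouse libraries. Libraries 6 and 7 are of batch 2, so this signal was not balanced between the genotypes there.

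The comparison of knockout with flox asks how the ganglion's transcripts differ between the genotypes. Neutrophil genes were higher in knockout DRG in all 3 classes: 27 of the 32 tested members rose, 1 fell and 4 did not pass edgeR's quasi-likelihood test at an adjusted p of 0.05, while Gfi1, with at most 20 counts in a library, was too low to test. Over all 15654 genes tested, 7.97% were called higher and 7.51% lower. The members were chosen with earlier results of these data known, so these shares are no test of the members as a set. The rises lay between 1.41 (Mmp9) and 4.37 (Stfa2l1) on the log2 scale, or 2.65-fold to 20.7-fold, with adjusted p-values from 1.78e-05 to 0.0174. Stfa2l1 rests on 0 to 3 counts in each flox library, so its fitted fold change depends on the prior count. The median log2 fold change of the tested members was 2.99, beside -0.01 for all tested genes. Every knockout library lay above every flox library for 25 of the 33 members in batch 1 (7.35% of all tested genes), for 28 in batch 2 (13.2%) and for 25 in both (3.25%). In bulk tissue, more cells of a type and more RNA per cell cannot be told apart.

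**Figure D1:**
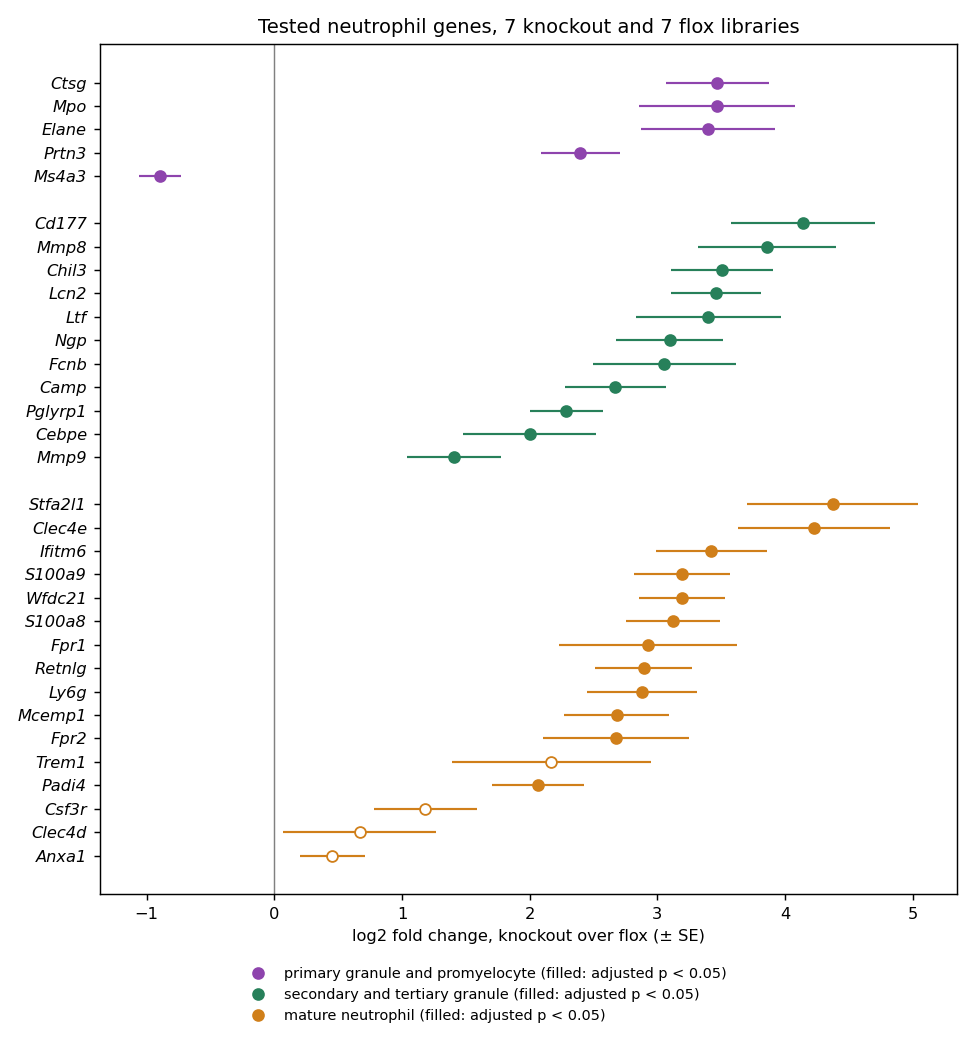
Log2 fold change of knockout over flox (x axis, ± SE) for the 32 tested neutrophil genes, in 3 classes by colour, from 7 knockout and 7 flox libraries. Filled points passed an adjusted p of 0.05: 27 lie right of 0 and Ms4a3 alone lies left of it.

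Of the primary granule and promyelocyte genes, 4 of 5 tested members rose and Ms4a3 fell. Ctsg, which encodes the serine protease cathepsin G (GRCm38 chr14:56099881-56102574, minus strand), stood at 2.51, 9.10, 12.9 and 5.16 CPM in the knockout libraries of batch 1 and at 0.760, 0.913 and 1.61 CPM in the flox libraries. In batch 2 it stood at 17.0, 7.88 and 12.9 CPM in knockout and 0.452, 0.677, 0.613 and 0.933 CPM in flox. The genotypes did not overlap in either batch, and its log2 fold change was 3.47 ± 0.40 (SE; adjusted p = 4.50e-05 in edgeR, as for all adjusted p-values below). Elane, encoding neutrophil elastase (chr10:79886247-79888215, plus strand), stood at 12.1, 20.1, 43.6 and 13.3 CPM in knockout and 1.35, 4.08 and 7.86 CPM in flox libraries of batch 1. Batch 2 values were 137.2, 56.7 and 67.1 CPM in knockout and 4.14, 3.33, 6.13 and 2.24 CPM in flox. Knockout library 5 was the highest of all 14 libraries, and the log2 fold change was 3.39 ± 0.53 (adjusted p = 0.000872).

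Prtn3, which encodes proteinase 3 and lies beside Elane (chr10:79874476-79883174), had 5.90, 8.72, 19.9 and 8.02 CPM in knockout and 1.35, 1.19 and 2.96 CPM in flox libraries of batch 1. It had 8.78, 5.02 and 5.61 CPM in knockout and 1.43, 1.24, 1.71 and 1.03 CPM in flox libraries of batch 2. It rose by 2.40 ± 0.31 (adjusted p = 0.000128), again without overlap. Prtn3 overlaps Plppr3 on the other strand, with which it shares 7.48% of its 31-base words, and reads from that stretch cannot be assigned without strand information. Mpo, encoding myeloperoxidase, ranged from 16.6 to 152.2 CPM in knockout and from 1.76 to 14.6 CPM in flox libraries, with a log2 fold change of 3.47 ± 0.61 (adjusted p = 0.00241). It shares 12.1% of its words with other genes, most with Gm11505 on the other strand.

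Ms4a3, a membrane protein gene used as a marker of granulocyte and monocyte progenitors (chr19:11629496-11640851, minus strand), ran the other way. It stood at 14.4, 20.0, 15.7 and 13.7 CPM in knockout and 25.7, 25.9 and 24.6 CPM in flox libraries of batch 1, and at 12.1, 7.16 and 9.47 CPM in knockout and 17.4, 27.6, 15.9 and 22.7 CPM in flox libraries of batch 2. Every knockout library lay below every flox library of its batch, an order found in both batches for 2.25% of all tested genes. Its log2 fold change was -0.90 ± 0.17 (adjusted p = 0.00231), and it was not called within batch 1 (adjusted p = 0.0744) or without the batch term (adjusted p = 0.0611). On the length-scaled TPM scale, Ms4a3 averaged 21.4 TPM in knockout DRG of batch 1, between Mpo (19.0 TPM) and Elane (33.5 TPM), against 29.6 TPM in flox DRG, where Mpo averaged 3.76 TPM and Elane 5.797 TPM. In batch 2 it averaged 12.996 TPM in knockout DRG, below Mpo (48.6 TPM) and Elane (131.7 TPM), against 30.3 TPM in flox DRG, where Mpo averaged 2.16 TPM and Elane 6.24 TPM. Gfi1, encoding a repressor that promyelocytes need to become granulocytes, had at most 12 counts in knockout and 20 counts in flox libraries.

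All 11 secondary and tertiary granule genes rose. Lcn2 encodes lipocalin 2, which starves bacteria of iron (chr2:32384633-32388252, minus strand). It stood at 79.2, 70.6, 281.7 and 99.2 CPM in knockout and 11.4, 14.2 and 23.7 CPM in flox libraries of batch 1, and at 24.2, 28.7 and 46.6 CPM in knockout and 1.91, 1.68, 2.77 and 2.12 CPM in flox libraries of batch 2. The genotypes were far apart in both batches, with a log2 fold change of 3.46 ± 0.35 and the lowest adjusted p of the 32 tested members (1.78e-05). Lcn2 can also be made by glia and other cells, so it is not a marker of neutrophils alone.

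Chil3, a chitinase-like protein gene, stood at 124.0, 182.3, 530.7 and 127.2 CPM in knockout and 16.8, 32.7 and 39.2 CPM in flox libraries of batch 1, and at 63.8, 40.0 and 80.0 CPM in knockout and 5.08, 3.59, 4.48 and 1.93 CPM in flox libraries of batch 2. Its log2 fold change was 3.51 ± 0.40 (adjusted p = 6.11e-05), and 41.5% of its 31-base words occur in other genes, most in Chil4, which makes its level uncertain. Pglyrp1, which encodes a protein that binds bacterial peptidoglycan, stood at 18.7, 13.3, 47.3 and 27.5 CPM in knockout and 7.81, 4.27 and 9.04 CPM in flox libraries of batch 1. Batch 2 values were 9.10, 11.2 and 10.9 CPM in knockout and 1.18, 1.24, 1.84 and 2.21 CPM in flox, and its log2 fold change was 2.29 ± 0.29 (adjusted p = 9.64e-05). Cd177, a neutrophil surface glycoprotein gene, had the largest rise of the class at 4.14 ± 0.56 (adjusted p = 0.000296). It stood at 16.2, 19.4, 73.0 and 21.0 CPM in knockout and 1.40, 5.12 and 4.57 CPM in flox libraries of batch 1, and at 31.8, 15.4 and 30.4 CPM in knockout and 1.18, 0.736, 0.322 and 0.249 CPM in flox libraries of batch 2. None of these 3 genes overlapped between genotypes in either batch. Cd177 and Pglyrp1 share 6.93% and 6.54% of their words with other genes.

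Camp, encoding the antimicrobial peptide cathelicidin, and Ngp, a related granule protein gene, had log2 fold changes of 2.67 ± 0.40 and 3.10 ± 0.42, with adjusted p-values of 0.000621 and 0.000301. Ltf, encoding the iron-binding lactoferrin, rose by 3.40 ± 0.57 (adjusted p = 0.00176). The collagenase gene Mmp8 rose by 3.86 ± 0.54, and the gelatinase gene Mmp9, marker of tertiary granules, by 1.41 ± 0.37, with adjusted p-values of 0.000435 and 0.0173. Mmp9 had the smallest rise of all called members, and its genotypes overlapped in batch 1, where it ranged from 13.2 to 52.2 CPM in knockout and from 4.03 to 19.7 CPM in flox libraries. Fcnb, encoding the lectin ficolin B, rose by 3.05 ± 0.56 (adjusted p = 0.00206). Its genotypes also overlapped in batch 1, with 2.32 CPM in knockout library 1 and 2.37 CPM in flox library 3. Cebpe, the transcription factor that directs secondary granule synthesis, rose by 2.00 ± 0.52 (adjusted p = 0.0174) at a low level, with means of 1.10 CPM in knockout and 0.223 CPM in flox. Its call was lost without knockout library 5 (adjusted p = 0.0554).

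Of the 16 mature neutrophil genes, 12 rose and the other 4 did not pass. S100a8 and S100a9 (chr3:90668978-90670035, plus strand, and chr3:90692632-90695721, minus strand), are the calprotectin subunits. They had the highest mean TPM of all members in knockout DRG of both batches and in flox DRG of batch 1, but in flox DRG of batch 2 Anxa1 averaged 93.6 TPM, above S100a8 (74.7 TPM) and S100a9 (35.8 TPM). S100a8 stood at 546.0, 508.4, 1777 and 791.7 CPM in knockout and 59.7, 139.8 and 190.4 CPM in flox libraries of batch 1, and at 141.7, 116.5 and 245.1 CPM in knockout and 17.7, 8.24, 22.4 and 13.1 CPM in flox libraries of batch 2. S100a9 ranked the libraries of each genotype in the same order, from 98.1 to 1549 CPM in knockout and from 6.59 to 191.3 CPM in flox. The pair had log2 fold changes of 3.12 ± 0.37 and 3.19 ± 0.38, each with an adjusted p of 9.83e-05. The ratio of S100a9 to S100a8 TPM was 0.547 to 0.738 in knockout, against 0.431 to 0.721 in flox libraries. Levels in batch 2 knockout DRG overlapped those of batch 1 flox DRG for both genes, so the genotypes were apart only within a batch.

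**Figure D2:**
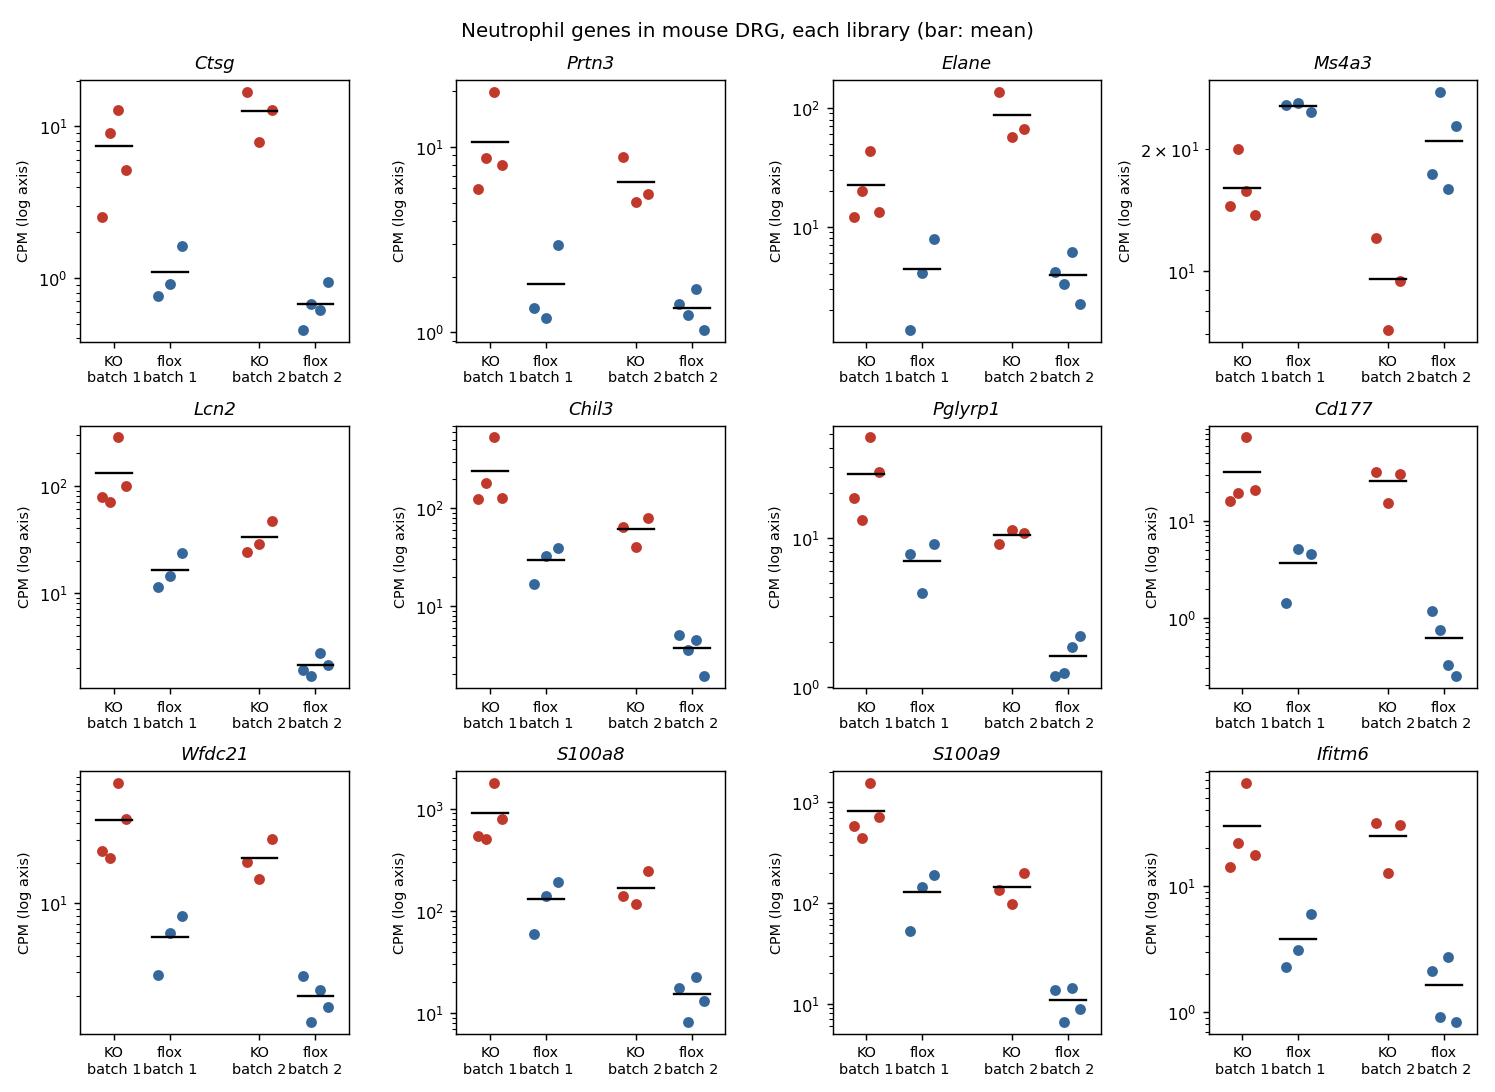
CPM (y axes, log scale) of the genes named with every library's value, in knockout (red) and flox (blue) DRG by batch; points are libraries, bars are means. In all panels but Ms4a3 each knockout point lies above each flox point of its batch; for Ms4a3 each lies below.

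Wfdc21 stood at 24.7, 21.99, 80.4 and 43.3 CPM in knockout and 2.85, 5.91 and 7.98 CPM in flox libraries of batch 1, and at 20.3, 15.2 and 30.3 CPM in knockout and 2.82, 1.27, 2.19 and 1.65 CPM in flox libraries of batch 2. With a log2 fold change of 3.19 ± 0.34 it had the lowest adjusted p of its class (1.88e-05). Ifitm6, of the interferon-induced transmembrane family, stood at 14.3, 21.9, 65.4 and 17.7 CPM in knockout and 2.28, 3.09 and 6.06 CPM in flox libraries of batch 1, and at 31.5, 12.8 and 30.3 CPM in knockout and 2.12, 0.912, 2.74 and 0.840 CPM in flox libraries of batch 2. Its genotypes did not overlap in either batch, with a log2 fold change of 3.42 ± 0.43 (adjusted p = 0.000138). Retnlg, a resistin-like gene, and Ly6g, the standard surface marker of mouse neutrophils, rose by 2.89 ± 0.38 and 2.88 ± 0.43 (adjusted p = 0.000190 and 0.000422). Ly6g shares 9.55% of its 31-base words with other genes, most with Ly6i, and Retnlg 5.51%, most with Retnla. Padi4, the enzyme that citrullinates histones when neutrophils release extracellular traps, rose by 2.07 ± 0.36 (adjusted p = 0.00138), and Mcemp1 by 2.68 ± 0.41 (adjusted p = 0.000522).

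The receptors of the class divided. Clec4e, the lectin receptor Mincle, rose by 4.23 ± 0.60 (adjusted p = 0.000256), whereas its neighbour and partner Clec4d had a log2 fold change of 0.67 ± 0.60 (adjusted p = 0.479). Fpr1 and Fpr2, which detect formylated bacterial peptides, rose by 2.93 ± 0.70 and 2.68 ± 0.57 (adjusted p = 0.0106 and 0.00577), although Fpr2 overlaps Fpr3 and 43.0% of its words occur in other genes. Fpr2 was not called within batch 2 (adjusted p = 0.104) or without the batch term (adjusted p = 0.0809), and Fpr1 was not called within batch 1 (adjusted p = 0.171) or without the batch term (adjusted p = 0.124). Csf3r, the receptor of granulocyte colony-stimulating factor, had a log2 fold change of 1.18 ± 0.40 (adjusted p = 0.0562), with 1.49 to 13.6 CPM in knockout, against 1.12 to 3.97 CPM in flox libraries. It passed with DESeq2 (adjusted p = 0.0183) and without knockout libraries 2 or 7 (adjusted p = 0.0443 and 0.0322), and 23.1% of its words occur in other genes. Trem1, an amplifier of inflammatory signals, had a log2 fold change of 2.17 ± 0.78 (adjusted p = 0.0702) and passed with DESeq2 (adjusted p = 0.0317) and without knockout library 4 (adjusted p = 0.0356). Anxa1, encoding annexin A1, which many cell types make, had 65.6 to 202.0 CPM in knockout, against 51.6 to 138.0 CPM in flox libraries, and a log2 fold change of 0.45 ± 0.25 (adjusted p = 0.244). Within batch 2 alone it passed, at 0.77 ± 0.19 (adjusted p = 0.0267), with all knockout libraries above all flox libraries. Stfa2l1, a stefin A family gene, had 5 to 29 counts in every knockout library and 0 to 3 counts in every flox library, and shares 41.6% of its words with other genes.

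The batches differed in level and in the mix of classes. Within batch 2 alone 26 members were called higher and 1 lower, against backgrounds of 7.22% and 5.99%, while within batch 1 alone 5 were called higher and 0 lower, against 1.12% and 0.687%. The 5 of batch 1 were Lcn2, Prtn3, Retnlg, Wfdc21 and Fpr2. The median log2 fold change of the members was 3.58 in batch 2 and 2.29 in batch 1, beside -0.02 and -0.00 for all tested genes. A member's log2 fold change was larger in batch 2 for 25 of 29 members with a value in both. The test of that difference, the interaction of batch and genotype, called 0 members in edgeR (1.03% of all genes; lowest adjusted p of a member 0.188), with 6 members at an unadjusted p under 0.05 and 1 member, Fpr1, called by DESeq2 (adjusted p = 0.0421). By class, the medians were 4.22 in batch 2 and 2.29 in batch 1 for primary granule genes, 3.92 and 2.55 for secondary and tertiary granule genes, and 3.46 and 2.26 for mature neutrophil genes. The classes were not tested against each other, nor were the members against all genes for this batch difference.

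**Figure D3:**
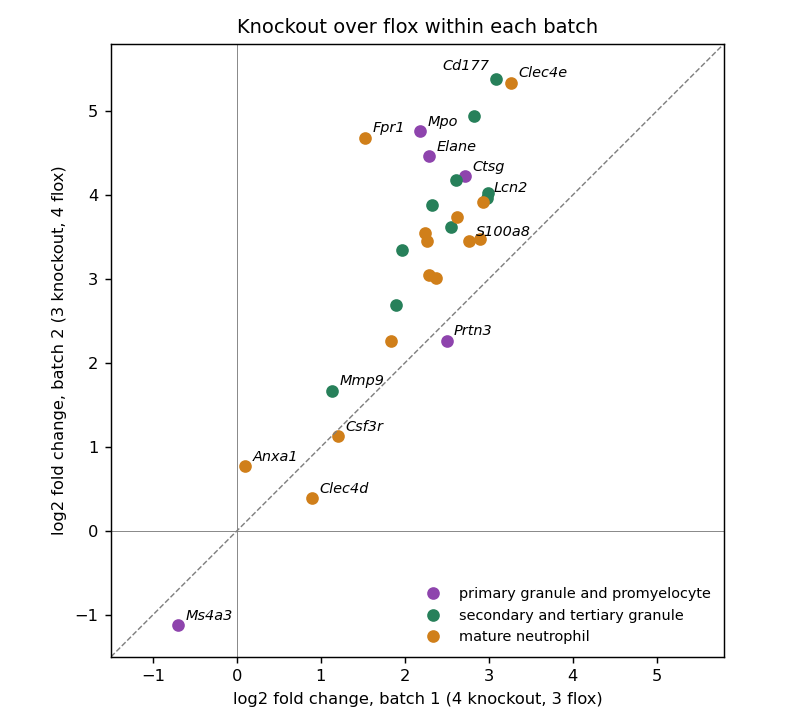
Log2 fold change of knockout over flox in batch 2 (y axis; 3 knockout, 4 flox libraries) against batch 1 (x axis; 4 knockout, 3 flox libraries) for the 29 members tested in both, by class. The dashed line marks equal change; 25 points lie above it.

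Primary granule transcripts were rarer relative to calprotectin in batch 1 than in batch 2, in both genotypes. For each 100 TPM of S100a8 and S100a9 together, Mpo, Elane, Prtn3 and Ctsg summed to 0.910 to 1.85 TPM in knockout, against 1.21 to 1.76 TPM in flox libraries of batch 1. In batch 2 they summed to 8.64 to 30.1 TPM in knockout and 8.79 to 16.5 TPM in flox. The secondary granule genes Lcn2, Camp, Ltf and Mmp8 summed to 7.72 to 9.32 TPM in knockout, against 9.99 to 12.5 TPM in flox libraries of batch 1, and to 34.0 to 41.3 TPM in knockout, against 30.1 to 52.6 TPM in flox libraries of batch 2. The genotypes overlapped in these ratios within a batch, except for the secondary granule ratio of batch 1, while the batches did not overlap in either ratio. Anxa1 set aside, the members together held 0.639% to 2.18% of a library's TPM in knockout, against 0.0800% to 0.266% in flox libraries of batch 1, and 0.169% to 0.299% in knockout, against 0.0197% to 0.0339% in flox libraries of batch 2. What the batches stand for is not given in the labels, so handling, animals and sequencing cannot be told apart.

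**Figure D4:**
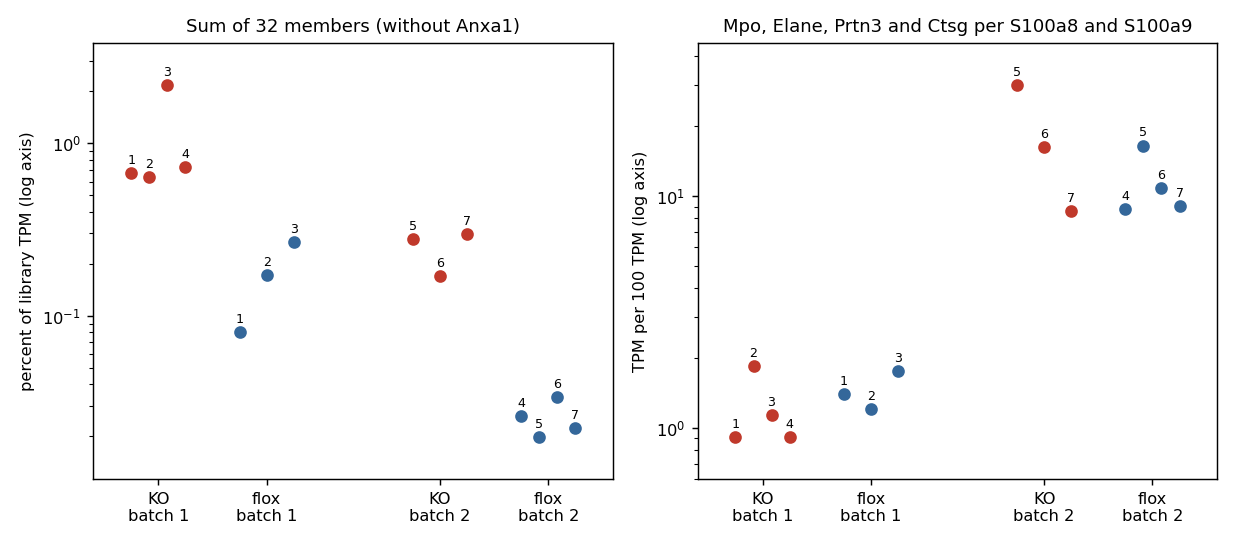
Left, the sum of 32 members (all but Anxa1) as a percentage of each mouse library's TPM. Right, the TPM of Mpo, Elane, Prtn3 and Ctsg per 100 TPM of S100a8 and S100a9. Axes are logarithmic and numbers name libraries; knockout libraries lie above flox libraries on the left within each batch, and on the right the batches separate while the genotypes overlap.

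Knockout library 3 had the highest CPM of its genotype and batch for 30 of 33 members, and flox library 3 for 22 of 33. Without knockout library 3 the same 27 members were called higher. Without knockout libraries 6 and 7 together, which held the high Y-linked sums, these 27 and Csf3r were called. Markers of blood and marrow were read beside these values. Of 8 erythroid genes 0 were called, and their sum was 1286 to 48855 CPM in knockout, against 804.1 to 12233 CPM in flox libraries. Knockout library 3 had the lowest erythroid sum of batch 1 (2281 CPM) and the lowest platelet sum of all libraries (22.8 CPM), while the highest erythroid sum lay in knockout library 4. Of 6 platelet genes 0 were called, with sums of 22.8 to 163.2 CPM in knockout, against 50.3 to 209.3 CPM in flox libraries.

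Of 8 marrow precursor genes found, 3 were tested and 1, Cd34, fell (-0.58 ± 0.14, adjusted p = 0.0125). Igll1, which marks marrow B cell precursors, was at 0 in all libraries, and Rag1 had at most 3 counts in knockout and 51 counts in flox libraries. The other genes found were too low to test, so the sum of the list rests mainly on the 3 tested genes. That sum was 182.5 to 261.1 CPM in knockout, against 179.6 to 279.0 CPM in flox libraries. Which cells of the ganglion made these transcripts was not tested, so neither the sum nor the fall of Cd34 measures marrow content. Bone and cartilage genes fell in 4 of 6 tested cases, with sums of 8.67 to 20.0 CPM in knockout, against 17.6 to 90.9 CPM in flox libraries. These were Col2a1, Chad, Bglap and Bglap2. Of 8 cell cycle genes 2 rose, Ccnb1 and Bub1, with the sum of the list highest in knockout library 5 (165.3 CPM), where Mpo and Elane were also highest. Among other myeloid cells, 0 of 8 macrophage genes were called, 1 of 6 monocyte genes rose (Ly6c2, 1.97 ± 0.34, adjusted p = 0.00142) and 1 fell (Fn1), 1 of 4 tested eosinophil genes rose (Prg2), and 2 of 7 tested mast cell genes fell (Cma1 and Mcpt4). Within batch 2 alone 3 of the 6 monocyte genes were called higher and 0 lower, and within batch 1 alone 0 were called. Of 8 sensory neuron genes 3 rose (Isl1, Tubb3 and Prph), with sums of 5814 to 8759 CPM in knockout, against 3863 to 7347 CPM in flox libraries. The part of these cells in the neutrophil result, and the cells that made each marker transcript, were not tested.

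Genes that act with the members moved in part. Of the 6 NADPH oxidase genes, which make the respiratory burst, 4 rose: Ncf4 by 1.99 ± 0.38, Rac2 by 1.43 ± 0.32, Ncf1 by 1.43 ± 0.24 and Cybb by 1.15 ± 0.25 (adjusted p of 0.000950 to 0.00872). Of 10 genes of adhesion and vessel entry, 6 rose. They included Selp and Sele, the selectins on which neutrophils roll along vessel walls, by 3.14 ± 0.54 and 3.45 ± 0.86, and the integrin subunit Itgam by 2.76 ± 0.67. Selp averaged 11.6 CPM in knockout and 1.31 CPM in flox, and Vcam1, another vessel adhesion gene, 41.3 CPM in knockout and 19.4 CPM in flox (1.11 ± 0.23). Of 15 attractants, growth factors and their receptors, 8 were tested. Ltb4r1, the receptor of leukotriene B4, rose by 1.99 ± 0.34 and Il6 by 2.30 ± 0.67, while Csf1 fell by 0.55 ± 0.17 on the log2 scale (adjusted p of 0.00133, 0.0306 and 0.0391). Csf3, which encodes granulocyte colony-stimulating factor, was at 0 counts in the knockout libraries and at most 5 counts in a flox library. Of 8 myeloid transcription factors 1 rose, Cebpd (1.13 ± 0.29, adjusted p = 0.0161). Within batch 1 alone 0 genes of these lists were called, beside 1.12% of all genes called higher. Within batch 2 alone 4 NADPH oxidase, 5 adhesion, 1 attractant and 0 transcription factor genes were called higher, beside 7.22% of all genes. The interaction of batch and genotype called 1 adhesion gene.

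The members' promoters were searched for a C/EBP element, the kind of site that Cebpe and its relatives bind. The letters were TTGCNNAA, or TTNNGCAA on the other strand, within 250 bases before and 50 after the RefSeq start. Of 30 members with a RefSeq promoter entry on GRCm38.p6, 12 held these letters, among them 9 of the 24 called higher, beside 12.2% of all 27025 genes in the table. The stretches around the matches in secondary and tertiary granule genes are shown 5′ to 3′ because these genes rose together, with the motif in capitals.
Lcn2: gcccttcctgTTGCTCAAccttgcacag
Ltf: ggcaggcctaTTGGGCAAtagggtgggg
Mmp8: taggcagaagTTGCTCAAgatgtagctt
Ngp, upstream match: tcctggtttaTTGCCCAAacctccttgc
Ngp, downstream match: ccggcagttcTTGGGCAAggcagtctca
Fcnb, upstream match: aaggcaggccTTTTGCAAacagaggtgc
Fcnb, downstream match: tttaggtctcTTGTGCAAccagaggcct
These stretches lie at chr2:32387938-32387965 (minus strand) for Lcn2, chr9:111019207-111019234 (plus) for Ltf, chr9:7558400-7558427 (plus) for Mmp8, chr9:110419660-110419687 and chr9:110419787-110419814 (plus) for Ngp, and chr2:28085096-28085123 and chr2:28084984-28085011 (minus) for Fcnb. Camp, Chil3, Cd177 and Pglyrp1 rose as well and held no such letters in this window, and Ms4a3, which fell, held a match. A match is a string of letters, and binding was not measured.

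The promoter of Lcn2 is given whole, as the granule gene with the lowest adjusted p (GRCm38.p6 chr2:32387690-32387989, minus strand).
Lcn2 promoter: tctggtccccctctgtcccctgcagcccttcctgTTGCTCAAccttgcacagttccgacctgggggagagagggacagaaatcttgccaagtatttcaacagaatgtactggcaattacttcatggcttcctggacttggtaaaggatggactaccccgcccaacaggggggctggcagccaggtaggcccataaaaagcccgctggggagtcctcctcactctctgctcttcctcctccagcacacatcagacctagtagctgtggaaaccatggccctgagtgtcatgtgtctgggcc

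In monkeys the comparison of SADBE with vehicle asks how DRG transcripts differ after treatment with a skin sensitiser. Of the 25 neutrophil genes in the tables, 18 were tested and 0 were called in either direction by edgeR, as were 0% of all 17988 genes tested. At an unadjusted p under 0.05 there were 550 genes, 1 of them a member (MCEMP1), and DESeq2 called 27 genes and no member. The median log2 fold change of the tested members was -1.40, beside -0.01 for all tested genes. Vehicle library 1 was the highest of the 6 libraries for 22 of the 25 members, and without it the members' median was -0.10.

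MCEMP1, a membrane protein gene named for its expression in mast cells, stood at 0, 0.225 and 0.815 CPM with SADBE and 9.14, 2.00 and 0.262 CPM with vehicle, a log2 fold change of -3.42 ± 1.48. S100A9 stood at 5.67, 20.6 and 33.9 CPM with SADBE and 278.9, 9.44 and 32.9 CPM with vehicle (-2.42 ± 1.16). S100A8 stood at 0.831, 12.02 and 22.004 CPM with SADBE and 166.0, 8.72 and 14.4 CPM with vehicle (-2.44 ± 1.31). CSF3R stood at 6.02, 2.36 and 7.12 CPM with SADBE and 22.7, 7.32 and 4.90 CPM with vehicle (-1.17 ± 0.71). The adjusted p of each was 0.999 in edgeR, and the groups overlapped in each. Without vehicle library 1 the log2 fold changes were -1.70 for MCEMP1, -0.09 for S100A9, -0.00 for S100A8 and -0.24 for CSF3R. The remaining members ranged from none detected to 751.7 CPM (ANXA1) with SADBE and from none detected to 1007 CPM (ANXA1) with vehicle.

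**Figure D5:**
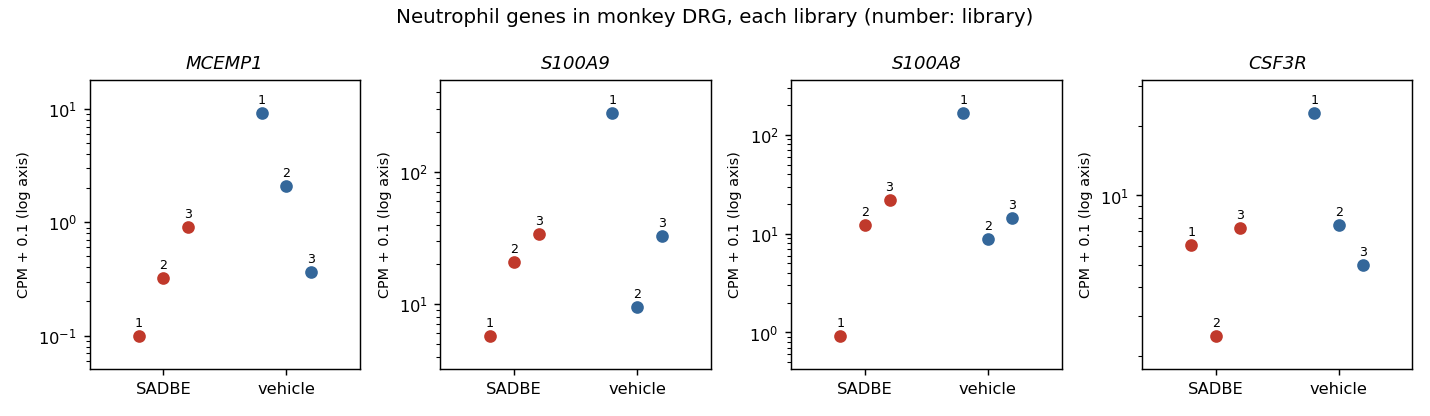
CPM + 0.1 (y axes, log scale) of the 4 monkey members with the lowest p in SADBE (red) and vehicle (blue) DRG; numbers name libraries. Vehicle library 1 is the highest point in every panel and the groups overlap.

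CLEC4D and CLEC4E, too low to test, lay lower in every SADBE library than in every vehicle library, an order that 4.56% of tested genes showed, and 0 members lay higher in every SADBE library (4.63%). Those shares cover tested genes only, so they leave out CLEC4D and CLEC4E themselves. CLEC4E had 0, 1 and 3 counts with SADBE and 49, 20 and 3 counts with vehicle. The 3 counts of SADBE library 3 and of vehicle library 3 differ in CPM only through library totals and scaling. The 4 erythroid genes found summed to 7.53, 20.6 and 29.2 CPM with SADBE and 167.0, 4.19 and 17.7 CPM with vehicle, so vehicle library 1 was again the highest. Sensory neuron markers summed to 7390, 4504 and 4491 CPM with SADBE and 1902, 7836 and 4218 CPM with vehicle, lowest in vehicle library 1. The part of blood content or of the neuron share in the monkey values was not tested.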

How the data were processed

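Total RNA of fresh frozen DRG was sequenced at a core facility, per the labels' protocols. The authors deposited estimated counts and TPM per gene, made with kallisto, with GRCm38 as the build named per the submitters' processing notes. The kallisto version and the monkey transcriptome are not given in the sources used here, nor is strandedness. In units of 1000 TPM, mouse columns summed to 787.0 to 834.5 in knockout and 601.0 to 796.6 in flox for batch 1, and to 976.0 to 979.3 in knockout and 954.1 to 978.8 in flox for batch 2, while each monkey column summed to 1000. TPM shares are relative to each column's own sum. A mouse row that names no gene held 0.0785% to 0.186% of counts and was left out.

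Estimated counts were rounded and tested in R 4.3.3 with edgeR 4.0.16, by its quasi-likelihood test (filterByExpr with minimum count 10 and minimum total 15, TMM scaling, robust dispersion, Benjamini-Hochberg over all genes, called under 0.05), with batch as a term in mice and none in monkeys. SEs derive from the F statistic. The procedure was tested on simulated data. DESeq2 1.42.0, limma 3.58.1 on log2(TPM + 1) and log2(TPM + 0.1), other scaling, no filter, no batch term, a replicate block, single batches and leaving libraries out were alternatives. Counts thinned to the smallest library were added after seeing the data. No libraries of a group were copies: the lowest chi-square per gene between libraries was 21.0 for mice and 26.5 for monkeys, and sampling noise alone gives about 1. Nothing in the labels ties a library to an animal. The p-values therefore measure only the spread among libraries, which may be technical.

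Members, classes and lists were chosen with earlier results of these data known. Every library's value is given for up to 4 members of a class with the lowest p, and in monkeys for the 4 with the lowest p. Coordinates and shared 31-base words come from GENCODE M21 (GRCm38), in which all 33 members were found and 17 shared no word with another gene. kallisto divides shared words between genes, so levels of the others are less certain. Promoters are RefSeq's, on GRCm38.p6.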

Additional observations from a re-analysis of the deposited data

Results flagged for a closer look

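In 66 checks for a library far from the rest of its 7 (33 genes in each genotype), 3 were met. That is no more than the rate of about 1 in 20 that chance gives. The checks pooled the batches, and many members were highest in the same library, so the rate is only a rough guide. All 3 flags lay in knockout library 3. Prtn3 stood there at 19.9 CPM, against 5.02 to 8.78 CPM in the other knockout libraries. Ngp stood at 973.3 CPM, against 135.6 to 272.9 CPM. Ltf stood at 362.4 CPM, against 70.8 to 129.5 CPM. No member passed the test of a difference between the batches in edgeR.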

How the results depend on the processing

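The 27 members called higher numbered 22 to 29 under the other scalings, filters and models with both batches, and 26 to 28 when a library was left out. The 29 came with DESeq2, which also called more genes of all kinds, 1709 higher and 1601 lower. The main edgeR fit called 1248 and 1175. Within batch 1 alone 5 were called higher and 0 lower, with 3 mature neutrophil, 1 primary granule and 1 secondary granule gene, and over all genes 169 higher and 104 lower. Without the batch term 22 were called higher and 0 lower (326 and 238 over all genes), losing Cebpe, Fpr1, Fpr2, Mmp9 and S100a9. With counts thinned to the smallest library 28 members were tested and 25 called, without Cebpe and Stfa2l1. In that fit 27 members and 4533 of all 14501 genes had an unadjusted p under 0.05. Leaving out a library gave 12 to 13 mature, 10 to 11 secondary and 4 primary granule calls, 1 fall, and 860 to 1555 higher and 716 to 1553 lower genes overall. The fewest lower genes (716) came without knockout library 5. In monkeys DESeq2 called 8 genes higher and 19 lower, and edgeR 0, with 0 members in each. The interaction of batch and genotype held 1 member with DESeq2. No log2 fold change of a tested mouse member or of the 4 monkey members named changed sign in any alternative. Causes of these shifts were not tested.

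Replicate numbers are shared between groups. Correlations between same-numbered libraries ran from -0.22 to 0.27 in mice and from -0.39 to 0.30 in monkeys. With 7 and 3 pairs these cannot settle whether libraries were paired, and the labels do not say. In mice number 4 names a knockout library of batch 1 and a flox library of batch 2, so that pair crosses the batches. With a replicate block the same 27 members were called higher and 1 lower (1009 higher and 1094 lower over all genes in mice), and 0 members in monkeys. The monkey members' median log2 fold change was -0.60 with the block and -1.40 without it. In mice 2 of 7 knockout libraries, and in monkeys 1 of 3 SADBE libraries, correlated best with their own number. Depth limits Gfi1, Cebpe, Trem1, Clec4d and Stfa2l1, which held few counts in most libraries.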
